A study of Sus scrofa with 31 samples.

Results

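The second day of SCS was examined in 3 pig hearts, each with a library labelled 48 h and one labelled 24 h of storage, which gave 6 of the 31 libraries of the series: 3 SCS 48 h libraries and 3 SCS 24 h libraries, from pigs 1, 3 and 5. The libraries were chosen by their treatment and time labels and paired by the pig number in their titles, and genes were tested where the mean normalized count over the 24 libraries of arm 1 was at least 10, which left 14141 of 21313 genes. The hearts of pigs 2, 4 and 6 were stored under the condition labelled HOPE and carry the same time labels; their 48 h and 24 h libraries serve as the comparison. The labels do not spell out the abbreviations, but in transplantation SCS commonly stands for static cold storage, and HOPE for hypothermic oxygenated perfusion. The labels give no strain, age or sex for any group, and a 48 h library differs from its 24 h partner by storage time alone, as far as the labels tell. The tissue is labelled myocardium and the cell type cardiomyocytes, but the protocol describes flash-frozen biopsies with no cell isolation. The protocol also places the biopsies at the end of the experiment, while the titles give 4 times for each pig, so every within-heart difference rests on the pig numbers in the titles.

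In static cold storage a heart is kept without flow or oxygen supply, and cooling slows but does not stop the use of energy. Messenger RNA is then lost or retained according to the stability of each transcript and to whatever transcription remains. Mitochondria carry their own small genome, whose protein-coding genes specify subunits of respiratory complexes I, III and IV and of ATP synthase; nearly all other respiratory chain subunits, and the proteins that copy and read the mitochondrial genome, are encoded in the nucleus. By mass myocardium is mostly cardiomyocytes, with endothelial cells, fibroblasts, pericytes, smooth muscle cells and resident immune cells between them.

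The SCS 48 h libraries held 20455199, 31314365 and 31932343 recovered reads in pigs 1, 3 and 5, and the SCS 24 h libraries held 19722065, 20067131 and 27444808. Reads outside the 13 mitochondrial protein-coding genes numbered 10632085, 12533296 and 5628265 at 48 h, against 11588032, 10988410 and 10411777 at 24 h. The 48 h library of pig 5 stood apart: it had the fewest of these reads among the 6, and 1529 of the tested genes were under 10 reads in it, against 576 and 1060 in the other 48 h libraries and 628 to 879 at 24 h. All 12 tested ventricular cardiomyocyte markers were present, with summed levels of 1911000, 1116000 and 1126000 normalized counts at 48 h and 1815000, 1070000 and 1228000 at 24 h. The 15 endothelial markers were all present too, so the libraries hold more than cardiomyocyte RNA. Wherever 3 SCS values are given for a time, they are in the order of pigs 1, 3 and 5.

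Transcripts of the 13 mitochondrially encoded genes took a larger share of the reads at 48 h than at 24 h in every SCS heart. The share was 48.0%, 60.0% and 82.4% at 48 h, against 41.2%, 45.2% and 62.1% at 24 h. Each heart was higher than its own 24 h library, and the groups overlapped, because the 24 h share of pig 5 was above the 48 h shares of pigs 1 and 3. The within-heart differences were 6.78, 14.7 and 20.3 percentage points, with a mean of 13.9 ± 6.80 (SD, n = 3). An exact two-sided sign-flip permutation test gave p = 0.25, the smallest p that 3 pairs allow.

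In HOPE hearts the share was lower at 48 h. It was 31.8%, 29.0% and 31.5% at 48 h in pigs 2, 4 and 6, against 35.2%, 35.9% and 31.8% at 24 h. All 3 differences were negative, at -3.43, -6.91 and -0.269 percentage points (mean -3.54 ± 3.32 SD, n = 3). SCS and HOPE differences did not overlap and lay 17.5 percentage points apart, with a two-sided exact permutation p of 0.1, the smallest that 3 against 3 hearts allow (0.3 after Benjamini-Hochberg adjustment over 3 such measures). The earlier intervals gave smaller or mixed differences in SCS. From 0 to 24 h the share differed by 5.37, 6.54 and 9.57 points, from 0 to 12 h by -2.76, 14 and 4.80, and from 12 to 24 h by 8.13, -7.50 and 4.77. The intervals that meet at 24 h share the 24 h libraries, so these values are set side by side only.

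**Figure D1:**
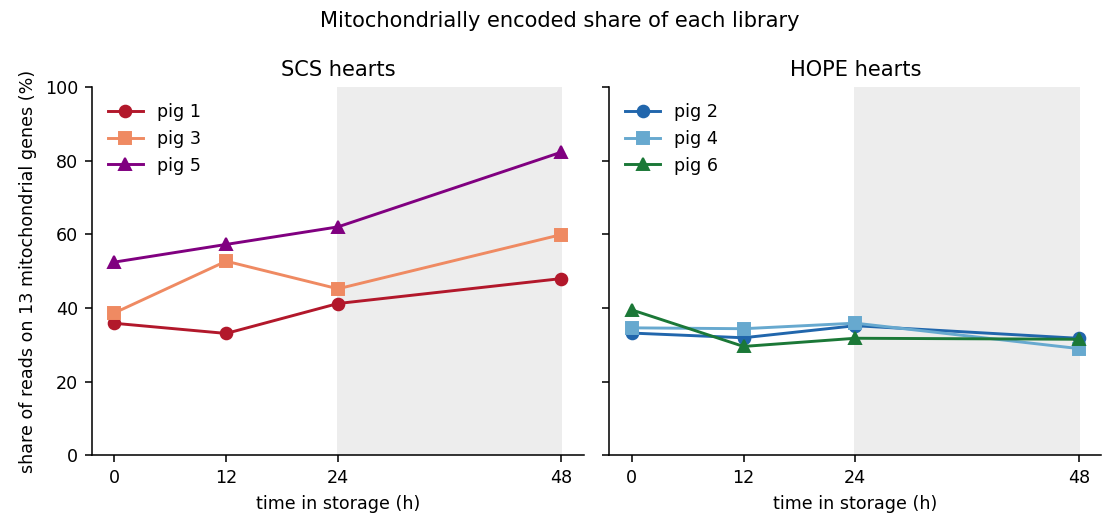
Share of all recovered reads on the 13 mitochondrially encoded genes (y axis, %) against storage time (x axis, h) in SCS hearts (left) and HOPE hearts (right); each line is 1 heart and the shaded span is the second day. All 3 SCS lines end higher at 48 h than at 24 h, at 48.0%, 60.0% and 82.4%, and all 3 HOPE lines end lower, between 29.0% and 31.8%.

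Within a heart the 13 genes differed by similar amounts. On the log2 scale of normalized count plus 1, their 48 h minus 24 h differences ran from 0.32 to 0.51 in pig 1, from 0.71 to 1.37 in pig 3 and from 1.45 to 2.00 in pig 5, so no gene of one heart reached the range of the next. The median of the 13 fold changes was 0.99, against -0.01 for all genes tested. None passed the test at an adjusted p of 0.05 with limma, and neither did any other gene (0% of all genes tested). At an unadjusted p under 0.05, 12 of 13 were higher, against 3.98% of all genes tested.

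Complex I is the NADH dehydrogenase, and its ND4L subunit (mitochondrial genome, positions 11069 to 11365) had the smallest p of the 13. ND4L was at 169960, 236140 and 639270 normalized counts at 48 h, against 119440, 91336 and 159560 at 24 h. Every 48 h library lay above every 24 h library. Its log2 fold change was 1.29 ± 0.29 (SE), and the limma adjusted p was 0.342; DESeq2 on the recovered reads called this gene alone, with an adjusted p of 0.0157. ND4, whose reading frame starts inside that of ND4L (positions 11359 to 12736), was at 1526600, 2051300 and 5138900 normalized counts at 48 h, against 1113200, 965310 and 1504000 at 24 h, also without overlap. Because the 2 genes share bases, reads at the junction cannot be assigned to one of them. ND1, ND2, ND3, ND5 and ND6, the other complex I subunits, had log2 fold changes between 0.82 and 1.23, and their 48 h and 24 h ranges overlapped.

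Cytochrome b (CYTB), the mitochondrial subunit of complex III, was at 1021500, 1613500 and 5538500 normalized counts at 48 h, against 783880, 861320 and 1822600 at 24 h. COX1, the catalytic subunit of complex IV, was at 5163000, 7014500 and 22274000 at 48 h, against 3989000, 3840600 and 7483300 at 24 h. Both were higher at 48 h in each heart and overlapped between times, since pig 5 was the highest heart at both. ATP8 and ATP6 are the 2 mitochondrial subunits of ATP synthase and also share bases (positions 8959 to 9162 and 9120 to 9800). ATP8 was at 43177, 47959 and 1086300 normalized counts at 48 h, against 31249, 22171 and 298930 at 24 h, a log2 fold change of 1.15 ± 0.29 (SE) with a limma adjusted p of 0.352. The fold change of ATP6 was 0.92, and COX1, COX2 and COX3 lay between 0.92 and 0.97, all on the log2 scale. Under scaling to the total count the median of the 13 genes was 0.35 while that of all genes was -0.64; quantile normalization, which ties the top ranks of the libraries to each other, left a median of 0.11 and gave ND4, CYTB and COX2 a small negative value.

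In HOPE hearts 12 of the 13 genes were lower at 48 h in 3 of 3 hearts, against 12.8% of all genes tested. Their median log2 fold change was -0.27. The difference between the SCS and HOPE changes had a median of 1.3 over the 13 genes. None passed the interaction test at an adjusted p of 0.05 (0% of all genes did), while 10 of 13 had an unadjusted p under 0.05, against 1.87% of all genes in that direction. In SCS the same 13 genes had a median log2 fold change of 0.52 from 0 to 24 h, which shares the 24 h libraries, and of 1.55 from 0 to 48 h, where 10 passed with limma, all higher, against 1.08% of all genes tested.

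**Figure D2:**
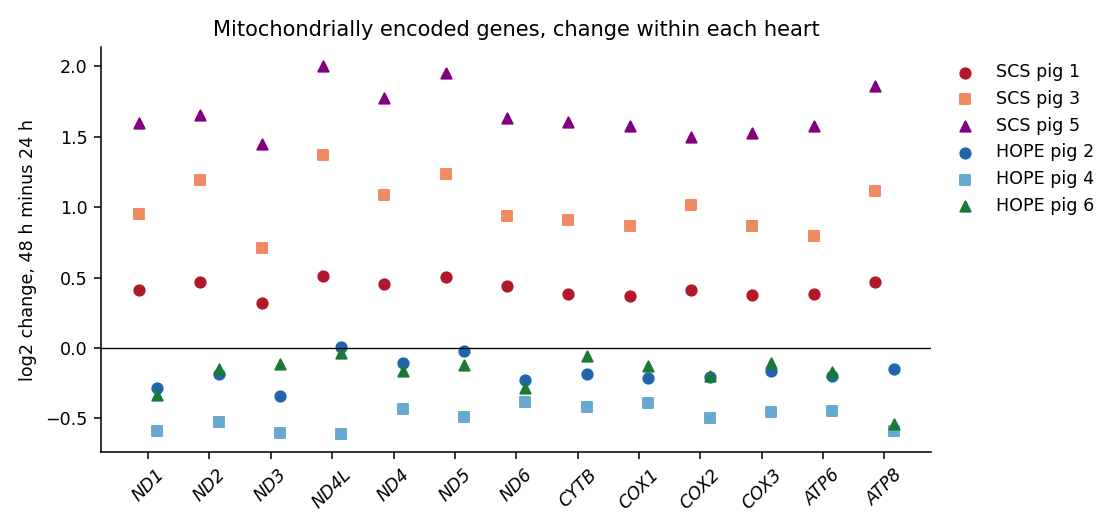
Log2 change from 24 to 48 h (y axis) of each of the 13 mitochondrially encoded genes (x axis) within each SCS heart and each HOPE heart. The SCS points lie above 0 in 3 separate bands, from 0.32 to 2.00, and the HOPE points lie below 0 except that of ND4L in pig 2, at 0.01.

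Their nuclear-encoded partners were near 0 as groups in SCS. The 49 tested nuclear-encoded respiratory chain subunits had a median log2 fold change of -0.04, with heart medians of 0.07, 0.11 and -0.36. In 3 of 3 hearts 7 were higher and 4 lower, or 14.3% and 8.16%, against 12.1% and 14.8% of all genes tested, and none had an unadjusted p under 0.05. The 16 enzymes of the TCA cycle had a median of -0.07 and heart medians of 0.06, 0.10 and -0.45. In 3 of 3 hearts 4 of them (25%) were lower and none higher. DLST, the E2 subunit of the 2-oxoglutarate dehydrogenase complex, was at 4314, 1913 and 1526 normalized counts at 48 h, against 4798, 2364 and 2228 at 24 h. For both lists the lower values came from pig 5: without its 48 h library the medians were 0.16 and 0.15. The 29 genes that copy and transcribe the mitochondrial genome or process and degrade its RNA had a median of 0.04, and the 33 mitochondrial ribosomal proteins one of -0.07. In HOPE hearts 25 of the 49 respiratory chain subunits (51%) were lower in 3 of 3 hearts. So were 17 of the 33 mitochondrial ribosomal proteins (51.5%), and no member of either list was higher in 3 of 3. Of all genes tested 12.8% were lower there. The HOPE medians of these 2 lists were -0.135 and -0.112.

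Gene by gene, no difference between 48 h and 24 h of SCS passed the test across all genes. With limma, 0 of 14141 genes passed (0%), and the smallest adjusted p was 0.342. At an unadjusted p under 0.05 there were 1260 genes (8.91%), 563 higher (3.98%) and 697 lower (4.93%); in HOPE hearts there were 300 (2.12%), 168 higher (1.19%) and 132 lower (0.933%), and 0 passed. The quasi-likelihood test of edgeR called 0 genes with 991 at an unadjusted p under 0.05, and DESeq2 called 1 with 1054. Scaling to the total count, in which a larger mitochondrial share lowers every nuclear gene, called 9 genes higher and 5977 lower. All 3 libraries at 48 h lay above all 3 at 24 h for 317 genes (2.24%) and below them for 257 (1.82%). Over all genes 1709 (12.1%) were higher and 2088 (14.8%) lower in 3 of 3 hearts, and in HOPE hearts these shares were 11.5% and 12.8%.

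The 3 hearts differed from each other more than they resembled each other. Over the 10115 genes with a mean of at least 100, Pearson's r between the changes of 2 hearts was 0.03 for pigs 1 and 3, 0.26 for pigs 1 and 5 and -0.10 for pigs 3 and 5; this is a description across genes, which are not independent. The share of these genes that differed by more than 2-fold was 1.98%, 0.732% and 5.82% in SCS, against 0.583%, 1.46% and 1.15% in HOPE pigs 2, 4 and 6. In pig 1 these were 23 higher and 177 lower genes, in pig 3 42 and 32, and in pig 5 334 and 255. The SCS and HOPE shares overlapped (two-sided exact permutation p = 0.3). Pig 5, which had the largest share, also had the fewest reads outside the 13 mitochondrial genes at 48 h, and the part of depth in this was not tested.

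The 12 top genes in each direction are described next, and none of them passed: all had a symbol, a mean of at least 100 and 1 direction in 3 of 3 hearts, and were taken by smallest unadjusted p. Their limma adjusted p ran from 0.342 to 0.399. ND4L and ATP8 were among the higher ones. SFSWAP, a splicing regulator (chromosome 14, 23516253 to 23594252), was at 503, 451 and 509 normalized counts at 48 h, against 386, 351 and 265 at 24 h. THOC1, of the complex that couples transcription to mRNA export (chromosome 6, 106039262 to 106088125), was at 542, 385 and 675 at 48 h, against 318, 305 and 343 at 24 h. MAP2K7, a kinase that activates JNK (chromosome 2, 71299010 to 71308432), was at 1294, 979 and 1169 at 48 h, against 862, 729 and 651 at 24 h. In these 3 genes every 48 h library lay above every 24 h library, with log2 fold changes of 0.56 ± 0.13, 0.69 ± 0.19 and 0.62 ± 0.15 (SE), which for SFSWAP and MAP2K7 became -0.07 and -0.02 under total-count scaling. For SFSWAP, THOC1 and MAP2K7 the log2 fold changes were -0.36, -0.31 and -0.08 from 0 to 24 h of SCS. From 0 to 48 h these were 0.20, 0.38 and 0.54, and both intervals share libraries with the second day.

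PAIP2B, which binds poly(A)-binding protein and holds back translation, was at 493, 502 and 509 normalized counts at 48 h, against 412, 339 and 309 at 24 h. RNF34, a ubiquitin ligase, was at 182, 128 and 175 at 48 h, against 114, 92.3 and 93.2 at 24 h. IFT88, a carrier of cargo along the primary cilium, was at 144, 116 and 248 at 48 h, against 63.6, 112 and 99.1 at 24 h. These 3 were also separated by time, as was SCRN2 (218, 144 and 239.7 at 48 h, against 119, 123 and 90.2 at 24 h). PAIP2B, RNF34, IFT88 and SCRN2 had log2 fold changes of -0.43, -0.72, -0.56 and -0.14 from 0 to 24 h of SCS. From 0 to 48 h these were 0.08, -0.03, 0.28 and 0.70, so RNF34 and PAIP2B at 48 h were near their 0 h levels. The genes were picked for 48 h values above 24 h values, which favours low 24 h libraries. The changes from 0 to 24 h use those same libraries, so a dip at 24 h was not tested. WDR35, another ciliary transport protein, and REPIN1, a zinc finger protein, overlapped, with log2 fold changes of 0.68 ± 0.17 and 0.40 ± 0.11 (SE); PAIP2B and REPIN1 had the opposite sign under total-count scaling, at -0.12 and -0.23. The last of the 12 was the entry annotated as the microRNA gene ssc-mir-10390, at 147100, 175800 and 15840 normalized counts at 48 h, against 117000, 75440 and 4162 at 24 h. The libraries came from a poly(A) kit, and whether these reads stem from a microRNA was not tested.

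Of the 12 lower genes, ADCY7, an adenylate cyclase (chromosome 6, 34521503 to 34586384), was at 82.2, 125 and 96.5 normalized counts at 48 h, against 168, 235 and 178 at 24 h. CMKLR1, the receptor of the chemoattractant chemerin (chromosome 14, 42420166 to 42468080), was at 159.7, 242 and 149 at 48 h, against 247, 370.5 and 243 at 24 h. For both genes every 48 h library lay below every 24 h library, and the 3 hearts differed by nearly the same amount. The log2 differences were -1.02, -0.91 and -0.87 for ADCY7 and -0.63, -0.61 and -0.70 for CMKLR1. In HOPE pigs 2, 4 and 6 CMKLR1 was also lower at 48 h without overlap, by -0.34, -0.35 and -0.44. Its SCS change minus HOPE change was -0.27, with an unadjusted limma p of 0.24. ADCY7 in these HOPE hearts differed by -0.10, 0.29 and 0.47. SMAD7, an inhibitor of TGF-beta signalling (chromosome 1, 98512800 to 98543924), was at 44.3, 94.5 and 81.9 at 48 h, against 70.8, 156 and 194 at 24 h, a log2 fold change of -0.87 ± 0.20 (SE). The SMAD7 ranges overlapped because pig 1 had the lowest level at both times.

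ITGBL1, a secreted integrin-like protein (chromosome 11, 70042051 to 70246974), had the most negative of the 24 fold changes, -1.86 ± 0.45 (SE). It was at 31.6, 32.7 and 114 normalized counts at 48 h, against 104, 128 and 442 at 24 h, lower in each heart by a similar factor although pig 5 at 48 h was above pig 1 at 24 h. PI16, a fibroblast protein, was at 413, 1702 and 1017 at 48 h, against 2776, 2067 and 1691 at 24 h, and most of that fold change came from pig 1. TM2D2 was at 169, 223 and 137 at 48 h, against 224, 311 and 460.1 at 24 h, without overlap. INKA2, an inhibitor of the kinase PAK4, TMEM165, a Golgi ion transporter, L3HYPDH, a hydroxyproline dehydratase, KDSR, an enzyme of sphingolipid synthesis, EMP1, a membrane protein, and PIK3IP1, an inhibitor of PI3 kinase, were lower in 3 of 3 hearts with overlapping groups and log2 fold changes between -0.79 and -0.53.

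Described as groups, the lists were of 3 kinds: those with members higher in every heart, those with members lower in every heart, and those that depended on the heart. The first kind held the mitochondrially encoded genes and the splicing factors. The second held junction, signalling and marker genes of the vessel lining, interferon-induced genes and genes of antigen presentation. Fibroblast, macrophage and matrix genes belonged to the third. The plots of list medians and of members with 1 direction show each list beside all genes tested.

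**Figure D3:**
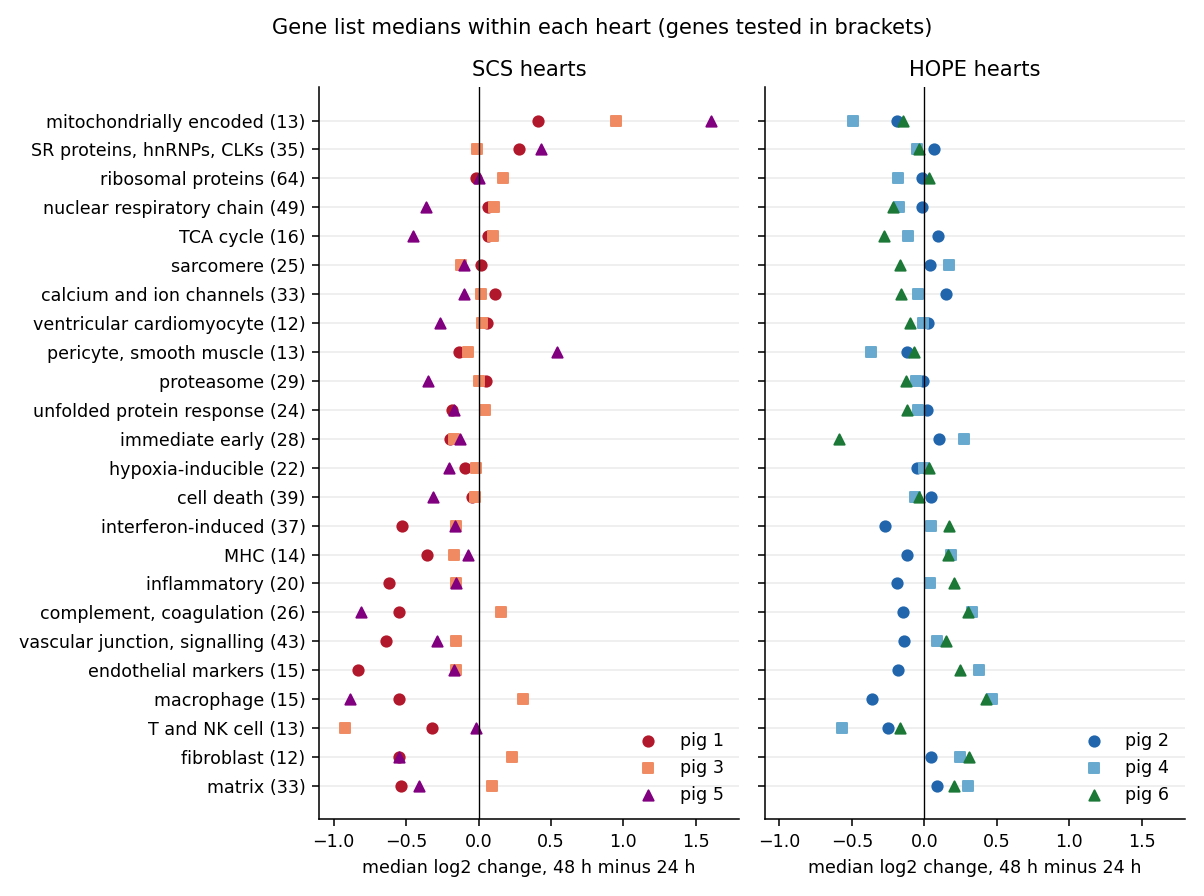
Median log2 change from 24 to 48 h (x axis) of 24 gene lists (rows, with the number of genes tested) within each SCS heart (left) and each HOPE heart (right). The mitochondrially encoded list stands to the right in SCS, at 0.41, 0.95 and 1.60, and endothelial lists stand to the left in all 3 SCS hearts, at -0.83, -0.15 and -0.17 for the endothelial markers.

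**Figure D4:**
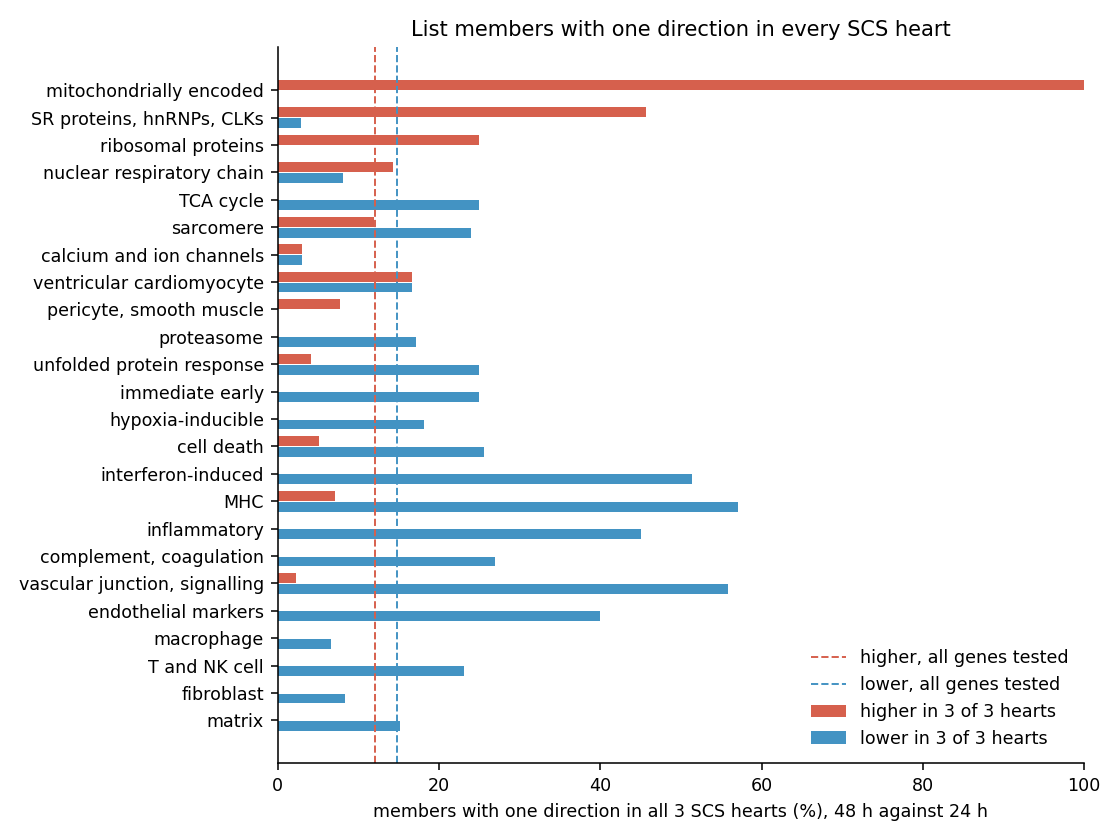
Percentage of each list's tested members (x axis) that were higher (red) or lower (blue) at 48 h than at 24 h in all 3 SCS hearts; dashed lines give the same for all genes tested, 12.1% higher and 14.8% lower. Mitochondrially encoded genes reach 100%, splicing factors 45.7% higher, and vascular, interferon-induced and MHC genes 55.8%, 51.4% and 57.1% lower.

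Splicing factors of the SR and hnRNP families and their CLK kinases, which decide how introns are removed, were higher at 48 h in pigs 1 and 5. The median log2 fold change of the 35 tested was 0.26, with heart medians of 0.28, -0.01 and 0.43. In 3 of 3 hearts 16 (45.7%) were higher and 1 (2.86%) was lower, against 12.1% and 14.8% of all genes tested; 12 had an unadjusted p under 0.05, all higher, and none passed. PNISR, a splicing-associated SR-rich protein (chromosome 1, 66349065 to 66382205), was at 1189, 1147 and 3023 normalized counts at 48 h, against 778, 1003 and 901 at 24 h. LUC7L3, a component of the U1 particle (chromosome 12, 27004894 to 27032156), was at 1385, 1548 and 3336 at 48 h, against 852, 1252 and 1346 at 24 h. Both were separated by time, with the widest gap in pig 5. HNRNPA2B1, an abundant RNA-binding protein, was at 12321, 11615 and 13226 at 48 h, against 10110, 9119.9 and 9865 at 24 h, with a log2 fold change of 0.35 ± 0.12 (SE) that was -0.28 under total-count scaling. PPIG, a cyclophilin of nuclear speckles, was at 792, 1257 and 2023 at 48 h, against 599, 889 and 997 at 24 h. The groups of PPIG overlapped, although each heart was higher at 48 h.

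Without the 48 h library of pig 5 the median of the splicing list was 0.10. In the other 2 hearts 17 members were higher in both, or 48.6% against 24.6% of all genes. Under total-count scaling the list median was -0.37, where all genes had -0.64. In HOPE hearts the median was 0.00. There 6 of 35 (17.1%) were higher and 8 (22.9%) lower in 3 of 3 hearts, against 11.5% and 12.8% of all genes tested. From 0 to 24 h of SCS, which shares the 24 h libraries, the list median was -0.11.

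Many junction, signalling and marker genes of the vessel lining were lower at 48 h in every heart, while endocardial and lymphatic markers had heart medians of either sign. Of 43 junction and signalling genes of the endothelium, 24 (55.8%) were lower in 3 of 3 hearts and 1 (2.33%) was higher, against 14.8% and 12.1% of all genes tested. The median log2 fold change was -0.36, with heart medians of -0.64, -0.16 and -0.29; 10 had an unadjusted p under 0.05, all lower, and none passed. Connexin 40 (GJA5, chromosome 4, 99854129 to 99871288), which forms gap junctions between arterial endothelial cells, was at 45.9, 350.1 and 278 normalized counts at 48 h, against 136, 782 and 618 at 24 h. Each heart was below its own 24 h library by a log2 difference of -1.55, -1.16 and -1.15, although the groups overlapped because pig 1 was low at both times. Caveolin 1 (CAV1), the coat protein of caveolae, was at 174, 2441 and 573 at 48 h, against 596, 2724 and 3011 at 24 h. That gap was wide in pigs 1 and 5 and narrow in pig 3. KLF4, a flow-responsive transcription factor of endothelium, was at 133, 648 and 406 at 48 h, against 239, 933 and 757 at 24 h, and its relative KLF2 at 745, 4631 and 2894 at 48 h, against 1447, 6052 and 4274 at 24 h.

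The 15 endothelial marker genes, a list with different purpose but some shared members, had a median of -0.50 and heart medians of -0.83, -0.15 and -0.17. In 3 of 3 hearts 6 of 15 (40%) were lower and none higher, against 14.8% and 12.1% of all genes tested. PECAM1, the junctional adhesion molecule CD31 (chromosome 12, 14667643 to 14723296), was at 1799.5, 12684 and 8010.4 normalized counts at 48 h, against 4751, 15158 and 15340 at 24 h. TEK, the receptor of angiopoietins, was at 466, 3316 and 2383 at 48 h, against 1164, 3789 and 3851 at 24 h. KDR, the main VEGF receptor, was at 678, 2297 and 3944 at 48 h, against 1631, 2588 and 4974 at 24 h, and endomucin (EMCN) at 359, 2157 and 1739.5 at 48 h, against 641, 2471 and 2602 at 24 h. All 4 were lower in each heart, most in pig 1, and their ranges overlapped between the times.

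The summed level of the 15 markers was 15860, 57800 and 62540 normalized counts at 48 h, against 25960, 64960 and 68060 at 24 h, or 0.611, 0.890 and 0.919 times. Pig 1 held fewer endothelial transcripts at both times. At 0 h the sums were 49330, 65060 and 57960, so the 48 h sum of pig 5 was above its own 0 h sum. Ventricular cardiomyocyte markers over the same interval were at 1.05, 1.04 and 0.917 times. A bulk biopsy cannot tell fewer endothelial cells from less RNA per cell, and separate biopsies of 1 heart may hold different shares of vessel, which was not tested. Without pig 1 the marker median was -0.18 and that of the junction and signalling list -0.20. In HOPE hearts the 2 medians were 0.11 and 0.07. There 0 of 15 and 4 of 43 (9.3%) members were lower in 3 of 3 hearts, against 12.8% of all genes tested. The 8 markers of endocardial and lymphatic endothelium had a median of -0.02 in SCS, with heart medians of -0.125, 0.022 and -0.265. In pig 5 they were thus no higher than the 15 endothelial markers. In 3 of 3 hearts 1 (12.5%) was higher and 1 (12.5%) lower, against 12.1% and 14.8% of all genes tested. Their summed level at 48 h was 0.995, 1.19 and 1.03 times that at 24 h.

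**Figure D5:**
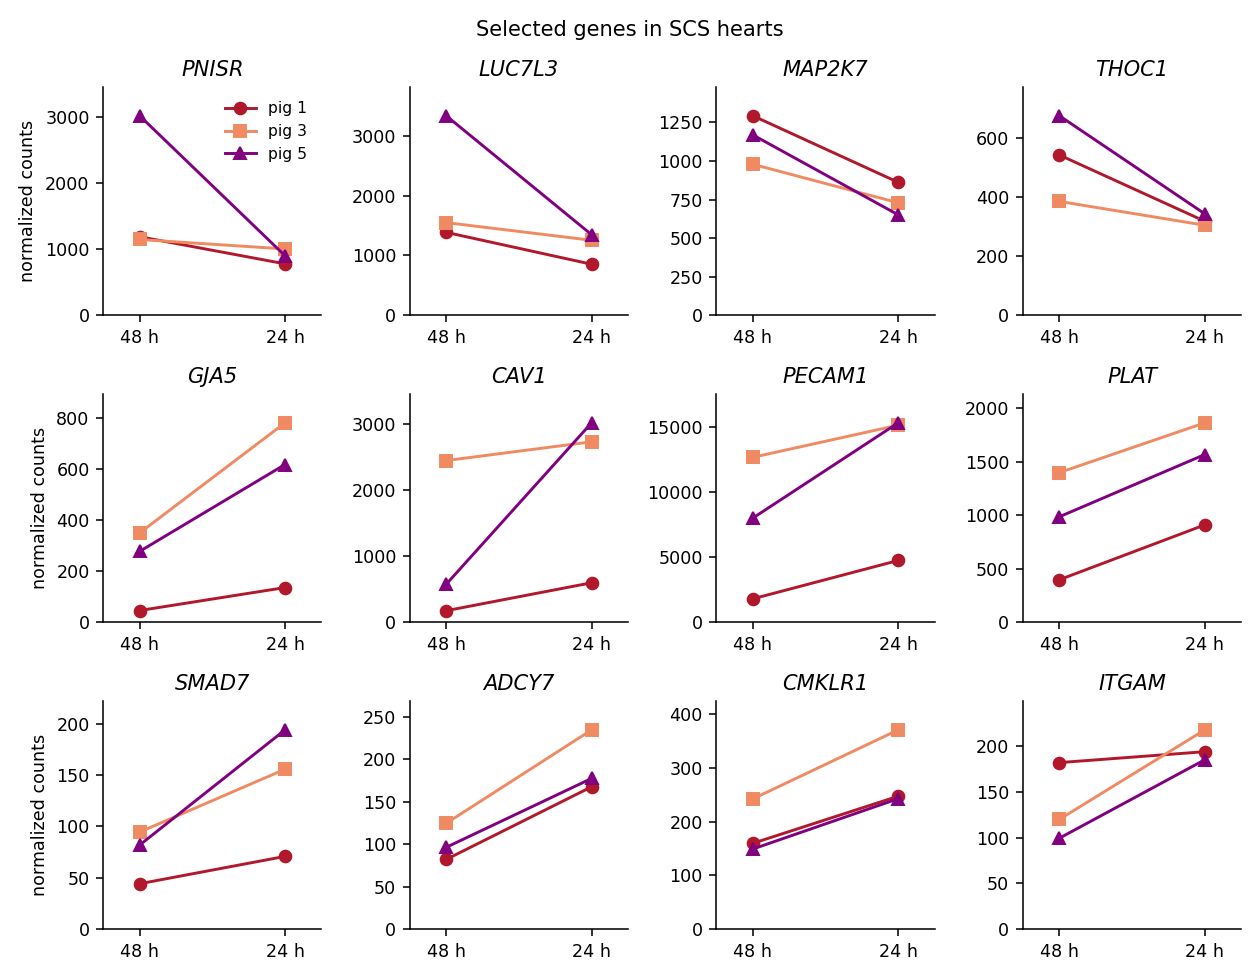
Normalized counts (y axes, from 0) of 12 genes in the 48 h (left) and 24 h (right) libraries of the SCS hearts, with a line for each pig. PNISR, LUC7L3, MAP2K7 and THOC1 in the top row lie higher at 48 h in all 3 hearts, and the vascular, signalling and myeloid genes below them lie lower.

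The 26 tested genes of complement, coagulation and fibrinolysis depended on the heart, with heart medians of -0.55, 0.15 and -0.81, and 7 members (26.9%) were lower in all 3, against 14.8% of all genes tested. Tissue plasminogen activator (PLAT, chromosome 17, 11195599 to 11223821), which starts the breakdown of fibrin, was at 397, 1398 and 985 normalized counts at 48 h, against 909, 1863 and 1567 at 24 h. Thrombomodulin (THBD), the thrombin receptor that activates protein C, was at 279.9, 1414 and 619.8 at 48 h, against 565, 1553 and 1303 at 24 h. The thrombin-activated receptor F2R was at 68.0, 540.3 and 202 at 48 h, against 123, 686 and 707 at 24 h. Each was lower in 3 of 3 hearts, with overlapping ranges. Leaving out pig 3 gave a list median of -0.81 and leaving out pig 5 one of -0.18, against -0.41 with all hearts.

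Interferon-induced genes, which encode antiviral and antigen-processing proteins, had a negative median in every heart. Of 37 tested, 19 (51.4%) were lower in 3 of 3 hearts and none higher, against 14.8% and 12.1% of all genes tested; the median log2 fold change was -0.23, with heart medians of -0.53, -0.15 and -0.16. An unadjusted p under 0.05 was found for 5, all lower, and none passed. GBP1, a guanylate-binding protein, was at 509, 1280.4 and 1432 normalized counts at 48 h, against 980.3, 1790.5 and 1811 at 24 h. USP18, which removes the ubiquitin-like ISG15, was at 103, 124 and 108 at 48 h, against 142, 153 and 175 at 24 h. Its groups did not overlap, which held for 1 of the 37 members, against 1.82% of all genes tested in that direction. OAS1, a sensor of double-stranded RNA, was at 150.2, 780.1 and 547 at 48 h, against 304, 864 and 672 at 24 h. The chemokine CXCL11 was near the limit of detection, at 0, 20.6 and 26.3 normalized counts at 48 h, against 8.68, 29.0 and 38.5 at 24 h. The summed level of the list, which its most abundant members set, was 11420, 30750 and 29400 normalized counts at 48 h, against 15650, 34520 and 28870 at 24 h, and so was not lower in pig 5. In HOPE hearts 1 of the 37 (2.7%) was lower in 3 of 3 hearts, against 12.8% of all genes tested, and the median was 0.00. Without pig 1 the SCS median was -0.13.

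The 14 tested genes of the pig MHC (SLA) and its peptide loading had a median of -0.23, with heart medians of -0.36, -0.17 and -0.07, and 8 (57.1%) were lower and 1 (7.14%) higher in all 3 hearts, against 14.8% and 12.1% of all genes tested. Their summed level was 27760, 54470 and 62220 normalized counts at 48 h, against 33210, 61720 and 55470 at 24 h, lower in pigs 1 and 3 and higher in pig 5. TAP1, the peptide transporter of class I loading (chromosome 7, 25062772 to 25071989), was at 259, 1015 and 792 normalized counts at 48 h, against 510.4, 1288 and 1489.8 at 24 h. The class II chain gene SLA-DQB1 was at 2090.5, 5596 and 3879.5 at 48 h, against 3288, 6972 and 5146 at 24 h. SLA-DMB, of the class II peptide exchanger, was at 348, 1405 and 991 at 48 h, against 651, 1553 and 1222 at 24 h. All 3 were lower in each heart and overlapped between times. SLA genes have close relatives, and the authors' counting could split reads between them.

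Inflammatory genes were measured at low levels, with 20 of 33 listed reaching a mean of 10. In 3 of 3 hearts 9 of the 20 (45%) were lower and none higher, against 14.8% and 12.1% of all genes tested, and the median was -0.32. Fractalkine (CX3CL1), an endothelial chemokine that tethers monocytes, was at 38.0, 218 and 105 normalized counts at 48 h, against 111, 338 and 369.9 at 24 h. The adhesion molecule ICAM1 was at 117, 506 and 737 at 48 h, against 239, 597 and 1019 at 24 h. P-selectin (SELP) was at 1.58, 7.27 and 26.3 at 48 h, against 26.0, 30.3 and 17.8 at 24 h, lower in pigs 1 and 3 and higher in pig 5. VCAM1 was at 958, 1239 and 678 at 48 h, against 1210.2, 1213 and 1141 at 24 h, lower in pigs 1 and 5 and nearly level in pig 3. All 4 genes are also made by endothelium, whose marker sums were 0.611, 0.890 and 0.919 times the 24 h sums; the part of this in their values was not tested.

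Other cells of the interstitium differed in direction between hearts. Macrophage markers had heart medians of -0.55, 0.31 and -0.89 over 15 genes, and their summed level was 8915, 16140 and 5438 normalized counts at 48 h, against 13000, 12050 and 11490 at 24 h. C1QA, a chain of the complement starter C1q made by tissue macrophages, was at 1459.5, 2669.8 and 792 at 48 h, against 2523, 1838 and 2274 at 24 h. It was lower in pigs 1 and 5 and higher in pig 3. CD14, the co-receptor for lipopolysaccharide, was at 145, 388 and 87.7 at 48 h, against 247, 318 and 217 at 24 h, in the same pattern. The integrin ITGAM was the exception, lower in 3 of 3 hearts without overlap, at 182, 119.9 and 99.4 at 48 h and 194, 218 and 185 at 24 h. The list median was -0.45, -0.73 without pig 3 and -0.13 without pig 5.

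Fibroblast markers followed the same division, with heart medians of -0.55, 0.23 and -0.55 over 12 genes and summed levels of 66710, 156600 and 59520 normalized counts at 48 h, against 117400, 121700 and 102100 at 24 h. COL3A1, a fibrillar collagen, was at 25176, 71970 and 18003 at 48 h, against 48248, 59154 and 42379 at 24 h. Of 33 matrix genes 24 (72.7%) were lower in both pig 1 and pig 5, against 30.2% of all genes tested, while 5 (15.2%) were lower in all 3 hearts, near the 14.8% of all genes. SPARC, a matrix glycoprotein, was at 11670, 33630 and 16544 at 48 h, against 22426, 31008 and 27279 at 24 h, and the gelatinase MMP2 at 3251, 6059 and 4467 at 48 h, against 5238, 6056 and 5936 at 24 h. In HOPE hearts the fibroblast and matrix lists had medians of 0.28 and 0.26, with 6 of 12 and 14 of 33 members higher in 3 of 3 hearts, against a background of 11.5% of all genes.

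T and NK cell markers were lowest relative to 24 h in pig 3, with heart medians of -0.32, -0.92 and -0.02 over 13 genes. In 3 of 3 SCS hearts 3 of 13 (23.1%) were lower and none higher, against 14.8% and 12.1% of all genes tested. HOPE hearts were lower too, with medians of -0.25, -0.57 and -0.17 in pigs 2, 4 and 6. There 4 of 13 (30.8%) were lower in 3 of 3 hearts and none higher, against 12.8% and 11.5% of all genes tested. CD3D, a chain of the T cell receptor complex (chromosome 9, 45640475 to 45644153), was at 6.33, 31.5 and 5.85 normalized counts at 48 h, against 28.9, 40.9 and 65.1 at 24 h. Its log2 fold change of -1.89 ± 0.49 (SE) rests on few reads. CD8A was at 4.74, 52.1 and 52.6 at 48 h, against 62.2, 123 and 53.3 at 24 h, and the kinase LCK at 36.4, 77.5 and 40.9 at 48 h, against 69.4, 174 and 65.1 at 24 h. All 3 were lower in each heart, and CD8A was nearly level in pig 5. Pericyte and smooth muscle markers had heart medians of -0.14, -0.08 and 0.55 over 13 genes. PDGFRB, the pericyte growth factor receptor, was at 2490.5, 1968 and 4318 at 48 h, against 2287, 2042 and 1609.6 at 24 h, while ACTA2, the smooth muscle actin, was at 2279, 3741 and 5759 at 48 h, against 8013, 6164 and 3848 at 24 h. PDGFRB was higher and ACTA2 lower at 48 h in pig 1, and both were higher in pig 5.

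Stress programmes showed small differences. Of 28 tested immediate early genes, 7 (25%) were lower in 3 of 3 hearts and none higher, with a median of -0.16. Of 24 genes of the unfolded protein response, 6 (25%) were lower and 1 (4.17%) higher in 3 of 3 hearts. Over all genes tested these shares were 14.8% lower and 12.1% higher. HERPUD1, which helps clear misfolded proteins from the endoplasmic reticulum, was at 979, 1003 and 705 normalized counts at 48 h, against 1223, 1079.8 and 1247 at 24 h. DNAJC3, a co-chaperone of the same compartment, was at 615, 1005 and 561 at 48 h, against 827, 1129 and 1003 at 24 h. HERPUD1 was separated by time and DNAJC3 was not. HIF1A, the oxygen-regulated transcription factor subunit, was at 628, 1128 and 772 at 48 h, against 839, 1308 and 1468 at 24 h, while the 22 hypoxia-inducible genes had a median of -0.16 with 4 (18.2%) lower in all 3 hearts, near the 14.8% of all genes.

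Of 39 cell death genes 10 (25.6%) were lower in 3 of 3 hearts and 2 (5.13%) higher, against 14.8% and 12.1% of all genes tested. The list of 39 holds members that promote and members that oppose death. BCL2, an inhibitor of apoptosis, was at 134, 191 and 87.7 normalized counts at 48 h, against 174, 241 and 148 at 24 h. It was lower in each heart. CASP8, the initiator caspase of death receptors, was at 30.0, 220.5 and 143 at 48 h, against 85.3, 219 and 308 at 24 h, lower in pigs 1 and 5 and level in pig 3. LPCAT3, a lipid remodelling enzyme of ferroptosis, was at 245, 92.1 and 73.1 at 48 h, against 191, 158 and 178 at 24 h, with pig 1 in the other direction. The 29 proteasome subunits had a median of -0.10, none higher and 5 (17.2%) lower in 3 of 3 hearts; without the 48 h library of pig 5 the median was 0.05.

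Ribosomal protein genes, whose messages are short and abundant, had a median of 0.05 over 64 tested, with heart medians of -0.02, 0.17 and 0.01. In 3 of 3 hearts 16 (25%) were higher and none lower, against 12.1% and 14.8% of all genes tested. RPL37 was at 12535, 20487 and 24607 normalized counts at 48 h, against 11457, 16162 and 19224 at 24 h, and its log2 fold change of 0.28 ± 0.14 (SE) was -0.36 under total-count scaling. Set beside it, the median was 0.40 from 0 to 24 h, which shares the 24 h libraries, and 0.44 from 0 to 48 h, where 19 passed with limma, all higher, against 1.08% of all genes tested. Sarcomere genes had a median of 0.00 over 25 tested, calcium and ion channel genes 0.06 over 33, and ventricular cardiomyocyte markers 0.00 over 12. TNNI3, cardiac troponin I (chromosome 6, 59366828 to 59377490), was at 297680, 290050 and 347070 at 48 h, against 256330, 256900 and 324340 at 24 h, each heart slightly higher, with a log2 fold change of 0.16 ± 0.25 (SE) that was -0.47 under total-count scaling and -0.23 under quantile normalization.

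The test of SCS changes against HOPE changes over the same 24 h passed for 0 of 14141 genes with limma, where 628 (4.44%) had an unadjusted p under 0.05, 265 higher (1.87%) and 363 lower (2.57%); edgeR and DESeq2 also called 0, with 553 and 606. The next genes were taken by smallest p under the same conditions on level and symbol, and compare changes, not levels. Those whose change was higher in SCS than in HOPE included, beside ND4L and ATP8, TPPP, which stabilizes microtubules. TUBG2, a gamma-tubulin, and GPR182, an endothelial receptor that takes up chemokines, were also among them. GPR182 was at 108, 119 and 155 normalized counts at 48 h of SCS, against 60.7, 102 and 74.0 at 24 h. It was higher in 3 of 3 SCS hearts with no overlap, while none of the 15 endothelial markers was higher in 3 of 3. The log2 fold change of GPR182 in SCS was -0.78 from 0 to 24 h, which shares the 24 h libraries. From 0 to 48 h it was -0.09. Genes whose change was lower in SCS than in HOPE were SMAD7, INKA2, PIK3IP1, PLAT, the immediate early gene IER2 and PAPSS2. The last makes the sulfate donor for matrix proteoglycans. PAPSS2 was at 123, 378 and 184 at 48 h of SCS, against 198, 413 and 253 at 24 h. Its within-heart log2 differences were -0.68, -0.13 and -0.46 in SCS, against 0.66, 0.64 and 1.16 in HOPE pigs 2, 4 and 6.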

How the data were processed

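Myocardial RNA of arm 1 was sequenced from a stranded poly(A) kit, with RNA integrity numbers above 6, per the labels' protocols; integrity per library and the use of strand in counting are not given in the sources used here. The deposited arm 1 table holds normalized counts, a signal: from its header and values, the authors scaled each library's reads per gene with a single size factor. Whole reads were recovered in all 24 libraries: 100% of values were whole multiples of 1 step at a tolerance of 1e-06. Aligners listed in the submitters' processing notes are STAR 2.5.2b and HISAT2 2.2.1, and counters Subread 1.5.2 and featureCounts 2.0.6, with trimming by Trimmomatic 0.36 and the build Sscrofa11.1; which served arm 1 is not given. Arm 2 was not used; 11 of its columns match no sample.

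limma 3.58.1 (R 4.3.3; mean trend) was fitted to log2(value + 1) over the 24 libraries with pig as a fixed replicate block and treatment by time as groups, 12 residual degrees of freedom, and Benjamini-Hochberg adjustment over 14141 genes at 0.05. Fold changes on this scale understate changes of low genes. edgeR 4.0.16 and DESeq2 1.42.0 on recovered reads, other scalings, pseudocounts and filters, and fits without each pig were alternatives. The titles give the pig, so pairing follows the heart; deviations of same-pig 48 h and 24 h libraries correlated with r of 0.38 to 0.72 in SCS and 0.40 to 0.67 in HOPE. The script was tested on simulated data.

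Libraries, 45 gene lists and the list members were chosen with earlier results of these data known. Genes were named by rule: the 12 per direction with the smallest p among those with a symbol, a mean of at least 100 and 1 sign in all hearts, up to 4 per described list by smallest p, 6 per direction for the SCS and HOPE difference, and the 13 mitochondrial genes. Symbols came from the table for 14365 genes and from a reference table for 109. Positions are from RefSeq, Sscrofa11.1, matched by symbol. A named result that is withheld is not reported here.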

Additional observations from a re-analysis of the deposited data

Results flagged for a closer look

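In 30 results all 3 SCS hearts differed one way between 48 h and 24 h and all 3 HOPE hearts the other way. They were sought only among the mitochondrial share, the described lists and the 130 named genes. Some of these genes were named for a small p of this very difference, which favours opposite signs. The mitochondrial share, list median and single genes are not separate observations. The share of all genes with this pattern was not counted. Apart from the exact test of the mitochondrial share, the sign pattern itself was not tested, and no gene passed the limma interaction test. Values are SCS change minus HOPE change, on the log2 scale unless stated. Groups of 3 were too small for a check of single outlying libraries.

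The share of reads on the 13 mitochondrially encoded genes differed by 17.48 percentage points and the median over the 13 genes by 1.3. Among them ATP8 had 1.57, ND5 1.44, ND2 1.39, ND1 1.39, ND4 1.34, ND6 1.3, COX2 1.27, ATP6 1.19, COX1 1.18, CYTB 1.18, ND3 1.18 and COX3 1.16. The entry annotated as the microRNA gene ssc-mir-10390 had 1.61, and which RNA its reads stem from was not tested.

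Some nuclear genes were higher at 48 h than at 24 h in SCS and lower in HOPE. These were GPR182 at 1.1, the speckle cyclophilin PPIG at 0.82, TUBG2 at 0.77, TPPP at 0.72 and cardiac troponin I (TNNI3) at 0.24. Others were lower at 48 h than at 24 h in SCS and higher in HOPE. These were tissue plasminogen activator (PLAT) at -1.39, PAPSS2 at -1.24, SMAD7 at -1.20, TM2D2 at -1.06, INKA2 at -0.96 and L3HYPDH at -0.91. The rest were IER2 at -0.90, PIK3IP1 at -0.84, BCL2 at -0.56 and PDIA6, a disulfide isomerase of the endoplasmic reticulum, at -0.36.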

How the results depend on the processing

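The count of 0 genes for SCS 48 h against 24 h was also 0 without each pig in turn and under most alternatives. It was 3 with no filter on low values, 5986 under total-count scaling and 1 (ND4L) with DESeq2. Without the replicate block it was 0, with 430 genes at an unadjusted p under 0.05 against 1260 with it. None of the 130 named genes was called with the block, so none could lose a call without it, and none gained one. The count for SCS against HOPE changes was 0 under every alternative run. The mean within-heart difference in mitochondrial share ranged from 10.8 to 17.5 points when a pig was left out. Total-count scaling, which shifts the median of all genes to -0.64, turned the sign of SFSWAP (-0.072), MAP2K7 (-0.015), PAIP2B (-0.12), REPIN1 (-0.23), TPPP (-0.26), TUBG2 (-0.18), HNRNPA2B1 (-0.28), RPL37 (-0.36), RPL35 (-0.41), RPL38 (-0.44), RPLP2 (-0.40), PFKFB4 (-0.13), NEBL (-0.20), ABCC9 (-0.29), TRDN (-0.32), CACNA1C (-0.35), IRX4 (-0.19), TNNI3 (-0.47), RYR2 (-0.47) and PDGFRB (-0.14). Quantile normalization turned ND4 (-0.032), CYTB (-0.048), COX2 (-0.032) and TNNI3 (-0.23). Leaving out a pig or the 48 h library of pig 5 gave ranges that crossed 0 for UQCRC2 (-0.43 to 0.003), UQCRFS1 (-0.41 to 0.081), IDH2 (-0.41 to 0.059), SDHA (-0.31 to 0.043), FABP3 (-0.27 to 0.082), NEBL (-0.016 to 0.88), ABCC9 (-0.039 to 0.56) and RYR2 (-0.23 to 0.46). In all 8 the sign turned without the 48 h library of pig 5, and in UQCRFS1, ABCC9 and RYR2 also without pig 5. The counts of list members with 1 direction were repeated with 1 heart left out, an alternative chosen after seeing the data: lower members numbered 25, 29 and 34 of 43 for vascular genes without pigs 1, 3 and 5, and 19, 22 and 30 of 37 for interferon-induced genes, against 24.0%, 30.2% and 26.0% of all genes. Higher members of the splicing list numbered 16, 27 and 17 of 35, against 21.5%, 27.2% and 24.6%. Medians by coding length were not run. With 3 hearts, few reads outside the 13 mitochondrial genes in 1 library and no spike-in named for arm 1, small differences could not be told from spread.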

Other observations

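Genes of ciliary transport were set apart after WDR35 and IFT88 had been named by rank, so the list was chosen with its values in view and carries no test. Of 34 tested intraflagellar transport and BBSome genes, which carry cargo in the primary cilium, 10 (29.4%) were higher and 1 (2.94%) lower at 48 h than at 24 h in 3 of 3 SCS hearts, against 12.1% and 14.8% of all genes tested. The median log2 fold change was 0.19, with 0.04, 0.08 and 0.23 in pigs 1, 3 and 5, and it was -0.44 under total-count scaling, where all genes had -0.64. In HOPE hearts 7 of the 34 (20.6%) were higher in 3 of 3 hearts, against 11.5% of all genes tested. All genes had a median of -0.01, and among metabolic and maintenance lists the medians were -0.09 for 23 fatty acid oxidation genes, -0.07 for 23 glycolytic genes, 0.07 for 25 heat shock genes, -0.04 for 30 autophagy genes and -0.06 for 20 cold-response and clock genes. Neuronal and Schwann cell markers (6 tested) had heart medians of -0.19, 0.89 and -0.71.

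ATP8 and ssc-mir-10390 differed in level between hearts of the same treatment. ATP8 was at 43180, 47960 and 1086000 normalized counts in the 48 h libraries of SCS pigs 1, 3 and 5, against 31250, 22170 and 298900 at 24 h. In HOPE pigs 2, 4 and 6 it was at 100400, 78570 and 14980 at 48 h, against 111300, 118300 and 21800 at 24 h. Pigs 2, 4 and 5 were above pigs 1, 3 and 6 at both times. ND1 was divided the same way at 24 h, at 146600, 142000 and 1002000 in SCS pigs 1, 3 and 5 and at 312700, 375200 and 101400 in HOPE pigs 2, 4 and 6, but not at 48 h, when it was at 194600, 274500 and 3037000 in the SCS pigs and at 256200, 249500 and 80270 in the HOPE pigs. The microRNA gene ssc-mir-10390 was high in pigs 1, 3 and 6 and low in pigs 2, 4 and 5, at 147100, 175800 and 15840 normalized counts in SCS pigs 1, 3 and 5 at 48 h, against 117000, 75440 and 4162 at 24 h, and at 1323, 1065 and 46220 in HOPE pigs 2, 4 and 6 at 48 h, against 1859, 1588 and 56050 at 24 h. ATP8 and ssc-mir-10390 were higher at 48 h than at 24 h in each SCS heart and lower in each HOPE heart. Whether these levels can be compared between hearts, given an unstated assignment of reads, was not tested. Nor was it tested whether the reads of ssc-mir-10390 stem from a microRNA.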
